A study of Mus musculus with 24 samples.

Results

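The genes described here are 10 compaction and cell polarity genes, namely Cdh1, Ctnnb1, Ctnna1, Pard3, Pard6b, Prkci, Prkcz, Ezr, Tjp1 and Cldn6, chosen by name as 10 of the 55291 genes in the read-count tables and read in all 12 RNA libraries. The study sequenced total RNA of mouse preimplantation embryos after knockdown of the endogenous retrovirus MERVL, at the 2-cell, 4-cell and 8-cell stages, with 2 libraries in each of 6 groups. Control embryos received a scrambled antisense oligonucleotide at 20 µM and MERVL-KD embryos an equal mix of 3 oligonucleotides against MERVL, 20 µM in total, by microinjection into the male pronucleus of the zygote. Zygotes came from superovulated 8-week-old B6D2F1 (BDF1) females mated with males of that strain, were labelled with the background strain BDF2, and were cultured in KSOM medium after injection. The 2-cell groups are labelled 1.5 days post coitum, and the 4-cell and 8-cell groups both carry the label 2.5 days post coitum. Each library pooled 30 embryos freed of the zona pellucida, so a value is a mean over all blastomeres of a pool and cell position within the embryo is not resolved. Total counts per library ran from 28167085 to 41482526.

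Compaction is the flattening of blastomeres against each other, and it depends on the adhesion protein E-cadherin and on the catenins that tie it to actin. Around the same time cells polarise, and the PAR proteins and atypical protein kinase C gather with ezrin at the surface that faces outward. Tight junctions later seal the outer cells to each other. The embryo starts with protein and messenger RNA stored in the oocyte, much of which is degraded as transcription of its own genome begins.

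The knockdown target was low in every MERVL-KD library. Internal MERVL sequence took 6.33% and 6.57% of all counts in the 2-cell control libraries and 0.157% and 0.143% in the 2-cell MERVL-KD libraries. In 4-cell embryos its share was 2.07% and 1.78% with the scrambled oligonucleotide and 0.0544% and 0.0331% after knockdown, and in 8-cell embryos 1.07% and 1.08% beside 0.0278% and 0.0278%. The groups did not overlap at any stage. The log2 fold change of MERVL-KD over control was -5.72 in 2-cell, -5.53 in 4-cell and -5.40 in 8-cell embryos, lower in 2 of 2 MERVL-KD libraries each time (adjusted p = 1.28e-16, 0.000104 and 2.42e-12; edgeR's quasi-likelihood test with the Benjamini-Hochberg correction).

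Marker lists were read in the same libraries. The 5 genes of the 2-cell embryo list summed to 465 and 389 normalised CPM (counts scaled to library size with TMM factors over the 12 libraries) in 2-cell control and to 215 and 276 in 2-cell MERVL-KD, with Zfp352 the most abundant. They summed to between 8.62 and 21.4 normalised CPM in the 4-cell libraries and between 5.19 and 11.8 in the 8-cell libraries. The 5 oocyte-derived genes, led by Bmp15 at the 2-cell stage, summed to 1224 and 1144 normalised CPM in 2-cell control, to 737 and 831 in 2-cell MERVL-KD, and to between 95.1 and 123 at the later stages. The 6 later preimplantation genes summed to 444 and 418 normalised CPM in 8-cell control and to 307 and 321 in 8-cell MERVL-KD, where the groups stood apart, with Pou5f1 or Tfap2c the most abundant, while 2-cell libraries summed to between 140 and 158 and 4-cell libraries to between 278 and 288. None of the genes in these 3 lists was at 0 in any library. The 9 cumulus or granulosa genes summed to between 0.539 and 4.05 normalised CPM, with 1 to 7 of them at 0 in a library. In 4-cell libraries the sum was 1.70 and 2.63 in MERVL-KD against 0.794 and 0.869 in control, with Foxl2 the most abundant in both MERVL-KD libraries, and its part in the 4-cell values of the 10 members was not tested. In 2-cell MERVL-KD all 5 genes of the 2-cell list and 4 of the 5 oocyte-derived genes lay below control in both libraries, while Zp3 lay above it (29.2 and 26.4 against 21.5 and 24.1 normalised CPM). In the 4-cell libraries the oocyte-derived sum hides genes that went both ways. Zp3 (18.7 and 17.5 against 12.8 and 13.9) and Gdf9 (33.6 and 36.5 against 29.5 and 22.9) lay above control in MERVL-KD. Bmp15 (23.4 and 23.7 against 28.8 and 33.0) and Nlrp5 (37.3 and 35.1 against 42.9 and 45.4) lay below control, and Oosp1 overlapped with it. In 8-cell MERVL-KD Pou5f1, Tfap2c and Cdx2 lay below control, Gata3 and Krt8 overlapped with it, and Krt18 lay above it (6.18 and 5.49 against 4.93 and 3.62). The later preimplantation sum also hides Cdx2 (0.808 and 0.792 against 0.383 and 0.385), Krt8 (3.61 and 4.38 against 2.46 and 2.97) and Krt18 (5.80 and 3.85 against 3.57 and 3.74), which lay above control in 2-cell MERVL-KD. In the 4-cell libraries it hides Krt8, at 24.6 and 28.1 normalised CPM in MERVL-KD against 4.20 and 5.52, and Krt18, at 10.2 and 7.39 against 3.23 and 3.40. The part of these genes in the values of the 10 members was not tested.

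**Figure D1:**
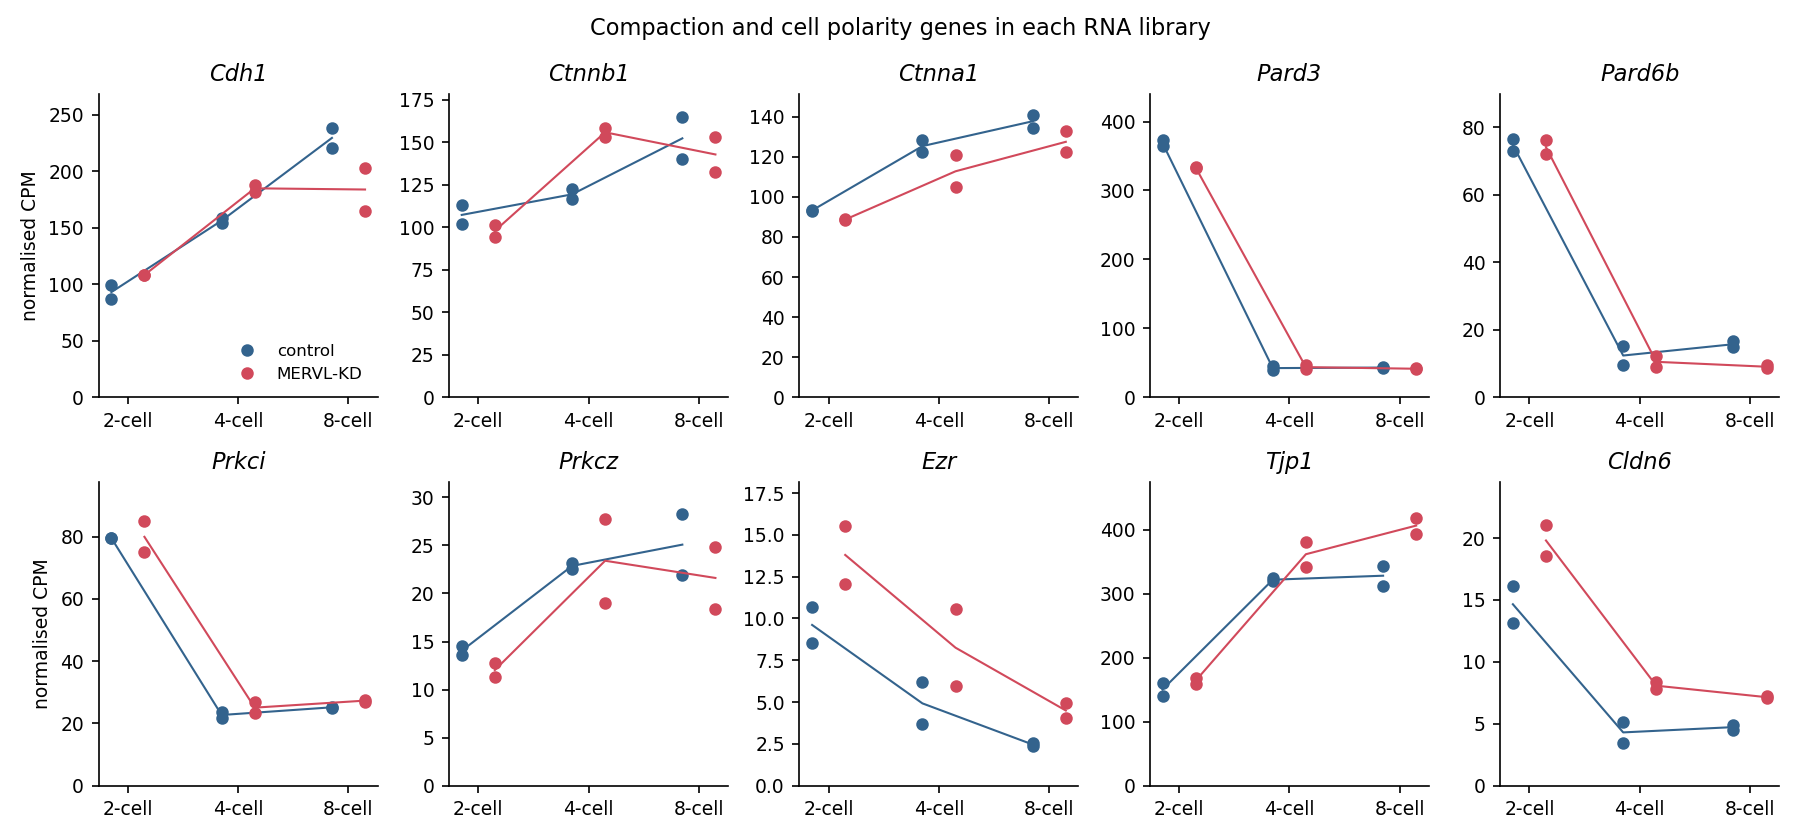
Normalised CPM of each of the 10 genes in the 12 RNA libraries, 1 panel per gene, with points for libraries and lines through the mean of each group of 2. Pard3, Pard6b and Prkci are high in all 4 of the 2-cell libraries and low afterwards, whereas Cdh1 and Tjp1 are lowest in the 2-cell libraries.

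How the genes behave from the 2-cell to the 4-cell stage was read in the control libraries, from embryos injected with the scrambled oligonucleotide. Of the 10 genes, 4 rose and 5 fell past the test, beside 26.6% of all tested features rising and 28.1% falling; all 10 passed the filter on low counts in every comparison. Past the test means an adjusted p under 0.05 in edgeR's quasi-likelihood test with the Benjamini-Hochberg correction over all tested genes and repeat families. With 9 of 10 past the test, more members changed than the background shares, in a transition that moved a large part of all features. All 10 members also pass a filter of at least 10 counts in every library. Under that filter 73.1% of all features were past the test, beside the same 9 members. The median log2 fold change of the members was -0.41, against -0.06 over all tested genes. This median was -0.23 without the first 4-cell control library and -0.65 without the second. In pools of embryos, fewer cells of a type and less RNA per cell cannot be told apart.

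The 3 adherens junction genes were read first. Cdh1 (ENSMUSG00000000303.12, chr8:106603351-106670246 of GRCm38) encodes E-cadherin, the adhesion molecule of compaction. Its level was 86.5 and 99.6 normalised CPM in the 2-cell, 154 and 159 in the 4-cell and 221 and 239 in the 8-cell control libraries. Every later control library was above every earlier one. The log2 fold change from the 2-cell to the 4-cell stage was 0.75 (SE 0.108, adjusted p = 4.22e-06 by edgeR's quasi-likelihood test with the Benjamini-Hochberg correction, higher in 2 of 2 libraries). From the 4-cell to the 8-cell stage Cdh1 rose by 0.55 more on the log2 scale (SE 0.108, adjusted p = 0.00393 in the same edgeR test with the Benjamini-Hochberg correction, higher in 2 of 2 libraries), and without the second 8-cell control library the step was 0.49 with an adjusted p of 0.0512 in that edgeR test with the Benjamini-Hochberg correction.

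Ctnnb1 (ENSMUSG00000006932.17, chr9:120929216-120960507) encodes beta-catenin, which binds the tail of E-cadherin. Control libraries held 102 and 113 normalised CPM at the 2-cell, 116 and 122 at the 4-cell and 140 and 165 at the 8-cell stage. The stages did not overlap, yet the first step had a log2 fold change of only 0.15 (95% confidence interval -0.07 to 0.38) and was not past the test, except under library size alone (0.32). Ctnna1 (ENSMUSG00000037815.7), the alpha-catenin that links the complex to actin, stood at 93.1 and 93.5 normalised CPM at the 2-cell, 128 and 123 at the 4-cell and 141 and 134 at the 8-cell stage in control. Its 2-cell libraries were the lowest, and the log2 fold change to the 4-cell stage was 0.43 (SE 0.102, adjusted p = 0.00119 by edgeR's quasi-likelihood test with the Benjamini-Hochberg correction, higher in 2 of 2 libraries).

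Tight junction genes went in opposite directions. Tjp1 (ENSMUSG00000030516.14, chr7:65296165-65527781) encodes ZO-1, a scaffold under cell junctions. In control it measured 141 and 160 normalised CPM at the 2-cell, 320 and 325 at the 4-cell and 313 and 344 at the 8-cell stage. The 4-cell and 8-cell libraries overlapped and all stood far above the 2-cell ones, with a log2 fold change of 1.10 for the first step (SE 0.0983, adjusted p = 3.41e-09 by edgeR's quasi-likelihood test with the Benjamini-Hochberg correction, higher in 2 of 2 libraries). Cldn6 (ENSMUSG00000023906.3, chr17:23679249-23682446), a claudin of the tight junction strand, gave 13.2 and 16.1 normalised CPM at the 2-cell, 3.46 and 5.14 at the 4-cell and 4.93 and 4.52 at the 8-cell stage in control. Its 2-cell libraries were the highest, and the log2 fold change of the first step was -1.77 (SE 0.232, adjusted p = 1.01e-06 in the edgeR quasi-likelihood test with the Benjamini-Hochberg correction, lower in 2 of 2 libraries).

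Pard3, Pard6b and Prkci of the apical PAR complex showed the largest steps among the 10 genes in control, together with Cldn6. Pard3 (ENSMUSG00000025812.17, chr8:127063893-127612286), the scaffold of the PAR complex, held 364 and 374 normalised CPM in the 2-cell control libraries, 45.5 and 38.9 in the 4-cell and 41.8 and 44.2 in the 8-cell control libraries. Pard6b (ENSMUSG00000044641.7, chr2:168081004-168101203), the adaptor that binds atypical protein kinase C, held 76.5 and 73.1, then 15.2 and 9.52, then 16.5 and 14.9 normalised CPM. Prkci (ENSMUSG00000037643.14, chr3:30995747-31052959), which encodes the iota form of that kinase, held 79.6 and 79.5, then 23.6 and 21.8, then 25.0 and 25.3 normalised CPM. For each of these 3 genes the 2-cell libraries stood far above the 4-cell and 8-cell libraries, which lay close together.

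From the 2-cell to the 4-cell stage in control the log2 fold change was -3.13 for Pard3 (SE 0.113, adjusted p = 3.44e-15), -2.59 for Pard6b (SE 0.189, adjusted p = 1.41e-10) and -1.81 for Prkci (SE 0.13, adjusted p = 1.01e-10), each lower in 2 of 2 libraries by edgeR's quasi-likelihood test with the Benjamini-Hochberg correction. Prkcz (ENSMUSG00000029053.16, chr4:155260129-155361361), the zeta form of the kinase, had 14.5 and 13.6 normalised CPM in 2-cell, 22.5 and 23.2 in 4-cell and 28.2 and 21.9 in 8-cell control. Its 2-cell libraries were the lowest, so the 2 kinase genes went opposite ways, with a log2 fold change of 0.70 for Prkcz (SE 0.200, adjusted p = 0.00502 by edgeR's quasi-likelihood test with the Benjamini-Hochberg correction, higher in 2 of 2 libraries). Oocyte-derived markers fell over the same step, as given above, and their part in the lower PAR values was not tested.

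Per length, the balance of the kinase genes moved with them. The ratio of Prkci to Prkcz in normalised CPM per kilobase (normalised RPKM) was 6.24 and 6.67 in the 2-cell control libraries, 1.19 and 1.07 in the 4-cell and 1.01 and 1.31 in the 8-cell control libraries. In MERVL-KD the same ratio was 8.53 and 6.71, then 1.39 and 1.10, then 1.72 and 1.23. The excess of Prkci was thus smaller in all 4-cell and 8-cell libraries than in any 2-cell library, and in the first 8-cell MERVL-KD library it remained at 1.72. This ratio was chosen after its values were seen and is given without a test.

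Ezr (ENSMUSG00000052397.8, chr17:6738041-6782784) encodes ezrin, which ties the apical membrane to cortical actin. Control libraries had 8.55 and 10.7 normalised CPM at the 2-cell, 3.66 and 6.18 at the 4-cell and 2.58 and 2.35 at the 8-cell stage. Each stage lay below the one before it. The first step had a log2 fold change of -0.97 (SE 0.298, adjusted p = 0.00872 by edgeR's quasi-likelihood test with the Benjamini-Hochberg correction, lower in 2 of 2 libraries), but the adjusted p in that edgeR test with the Benjamini-Hochberg correction was 0.0794 (log2 fold change -0.80) without the second 2-cell control library and 0.138 (-0.64) without the first 4-cell control library. The second step was -0.99 on the log2 scale and was not past the test, though it was in 5 of 8 other settings. Without the first 4-cell control library it was -1.33 and past the test, and without the second it was -0.57.

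Promoters of the members that moved together are shown here because Pard3, Pard6b and Prkci fell between the 2-cell and 4-cell stages, and because Cldn6 and Ezr had higher values in MERVL-KD at the 2-cell stage, as described further on. The sequences are RefSeq promoters on build GRCm38.p6, 300 bases from 250 before to 50 after the start, and 8 of the 10 genes matched an entry, with 12 promoters between them; Cdh1 and Ctnna1 did not. Capitals mark matches on either strand to GCCNNNGGC (TFAP2), GGAATG (TEAD) or CAGGTG (E-box of Snail type), and no match overlapped one of another motif. The Pard3 promoter is the first of 2 entries at chr8:127063806-127064105 on the plus strand and holds 2 TFAP2 matches, while the second entry, not printed, holds 0 TFAP2 and 3 E-box matches. The Pard6b promoter at chr2:168080754-168081053 on the plus strand holds 1 TFAP2 match and 2 E-box matches. The Prkci promoter at chr3:30995521-30995820 on the plus strand holds 1 TEAD match. The Cldn6 promoter at chr17:23679115-23679414 on the plus strand holds 1 TEAD match and 2 E-box matches. The Ezr promoter at chr17:6782731-6783030 on the minus strand holds none of the 3 motifs.
Pard3: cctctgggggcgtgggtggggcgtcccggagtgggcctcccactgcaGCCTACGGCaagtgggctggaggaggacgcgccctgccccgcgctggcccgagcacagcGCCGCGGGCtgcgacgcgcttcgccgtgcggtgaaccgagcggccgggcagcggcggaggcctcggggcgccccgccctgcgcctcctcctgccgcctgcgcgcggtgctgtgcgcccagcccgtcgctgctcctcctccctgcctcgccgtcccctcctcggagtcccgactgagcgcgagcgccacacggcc
Pard6b: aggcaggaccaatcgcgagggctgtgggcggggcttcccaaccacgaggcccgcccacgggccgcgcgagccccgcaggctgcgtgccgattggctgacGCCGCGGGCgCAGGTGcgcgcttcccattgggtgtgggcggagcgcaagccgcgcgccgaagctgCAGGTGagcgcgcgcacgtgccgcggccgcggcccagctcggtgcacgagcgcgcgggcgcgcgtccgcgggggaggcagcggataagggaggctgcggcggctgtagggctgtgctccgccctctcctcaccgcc
Prkci: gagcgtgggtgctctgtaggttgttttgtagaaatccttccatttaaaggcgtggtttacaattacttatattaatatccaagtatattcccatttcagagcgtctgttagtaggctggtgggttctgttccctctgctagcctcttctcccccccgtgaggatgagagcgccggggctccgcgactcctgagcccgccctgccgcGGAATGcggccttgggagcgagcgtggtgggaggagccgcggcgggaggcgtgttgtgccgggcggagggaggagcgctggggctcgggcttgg
Cldn6: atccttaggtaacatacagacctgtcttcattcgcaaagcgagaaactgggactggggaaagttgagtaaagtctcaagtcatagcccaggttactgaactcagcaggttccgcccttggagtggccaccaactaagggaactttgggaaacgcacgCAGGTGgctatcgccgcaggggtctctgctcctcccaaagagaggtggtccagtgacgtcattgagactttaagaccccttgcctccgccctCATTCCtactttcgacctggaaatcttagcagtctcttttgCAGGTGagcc
Ezr: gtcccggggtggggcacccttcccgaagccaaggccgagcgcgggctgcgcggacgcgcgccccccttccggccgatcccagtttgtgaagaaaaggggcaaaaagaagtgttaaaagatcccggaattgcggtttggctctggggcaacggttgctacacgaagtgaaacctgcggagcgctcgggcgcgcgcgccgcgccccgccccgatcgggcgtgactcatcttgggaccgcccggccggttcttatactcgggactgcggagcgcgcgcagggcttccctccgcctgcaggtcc

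Over all 32851 promoters of the same table, 16.6% held the TFAP2 letters, 14.7% the TEAD letters and 20.2% the E-box letters. Of the 12 promoters of the 8 genes, 6 held the TFAP2 letters, 2 the TEAD letters and 5 the E-box letters, in 5, 2 and 4 genes. A match is a description of the letters in this window and not a binding site.

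Whether the members hold sites for the injected oligonucleotides was read from the genome. Over 1240708 bases of the 10 genes from start to end, on the transcribed strand, 1 site with at most 4 mismatches to any of the 3 MERVL oligonucleotides was found, in an intron of Pard3, with 2 mismatches. No exon of the 10 genes held such a site, and none of the genes held a site with 0 mismatches. An effect of that intron site on Pard3 was not tested.

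Ordered per length, Tjp1 and Cdh1 led after the 2-cell stage, with Tjp1 first in 4-cell control (41.3 normalised RPKM, against 34.2 for Cdh1) and in MERVL-KD at both later stages. In 2-cell control the mean normalised RPKM was highest for Pard3 at 24.8, followed by Pard6b at 22.0, Ctnnb1 at 20.6, Cdh1 at 20.3 and Tjp1 at 19.3. The libraries of Pard6b, Ctnnb1, Cdh1 and Tjp1 overlapped from each neighbour in this order to the next, so these 4 are not ranked beyond their spread. In 8-cell control Cdh1 led with 50.2 normalised RPKM, ahead of Tjp1 at 42.1, Ctnnb1 at 29.3 and Ctnna1 at 21.4, with no overlap between neighbours. The other 6 genes lay between 4.62 for Pard6b and 0.748 for Ezr on that scale at the 8-cell stage, with Pard3 at 2.89.

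**Figure D2:**
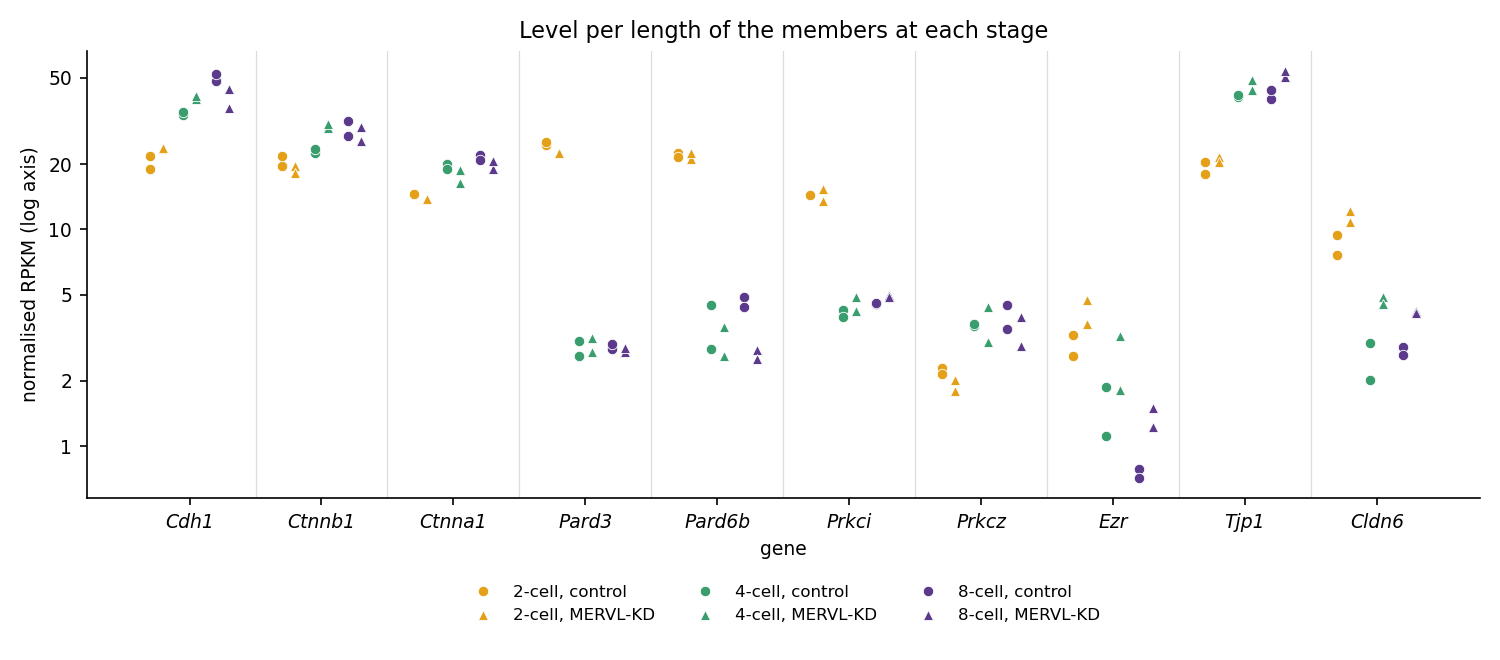
Normalised RPKM of the 10 genes on a log axis, with circles for control and triangles for MERVL-KD libraries and colours for the stage. Pard3 goes from the highest 2-cell control level (24.8 on average) to 2.89 at the 8-cell stage, while Cdh1 and Tjp1 lead at the 4-cell and 8-cell stages.

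Between the 4-cell and 8-cell stages few members moved in control. As both stages carry the label 2.5 days post coitum, a difference in pace between embryos cannot be told apart from stage here. Cdh1 was the 1 gene that rose and none of the 10 fell past the test, beside 3.12% of all features rising and 3.02% falling. By edgeR's quasi-likelihood test the count of 0 falling genes stood beside 3 genes in either direction at an unadjusted p under 0.05, and DESeq2 called 3 genes, which were Cdh1 and Ctnnb1 as higher and Ezr as lower. The count was 2 without the first 4-cell or the first 8-cell control library and 0 without the second 8-cell control library.

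In MERVL-KD embryos the step from the 2-cell to the 4-cell stage moved all 10 genes past the test, 5 up and 5 down, beside 26.9% of all features rising and 26.8% falling. The 5 that fell were again Pard3 (log2 fold change -2.94), Pard6b (-2.82), Prkci (-1.67), Cldn6 (-1.29) and Ezr (-0.74). The 5 that rose were Tjp1 (1.14), Prkcz (0.96), Cdh1 (0.77), Ctnnb1 (0.67) and Ctnna1 (0.35), each with both 4-cell libraries above both 2-cell libraries. MERVL-KD libraries of Prkcz spread from 19.1 to 27.8 normalised CPM at the 4-cell stage, all above the 11.3 and 12.7 of the 2-cell stage. Ezr was not past the test without the second 2-cell MERVL-KD library (log2 fold change -0.54) or without the first 4-cell one (-0.39), and Ctnna1 was not without the second 4-cell one (0.20). Scaling by library size alone (0.21) and a filter of 10 counts in every library (0.20) also ended the call of Ctnna1.

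From the 4-cell to the 8-cell stage 0 of the 10 genes rose and 0 fell in MERVL-KD by edgeR's quasi-likelihood test, beside 2.22% of all features rising and 2.40% falling. At an unadjusted p under 0.05 there was 1 gene, Ezr, and DESeq2 called 0. Ezr had a log2 fold change of -0.87 (95% confidence interval -1.49 to -0.25), which was -1.22 and past the test without the first 4-cell MERVL-KD library and -0.37 without the second. It was also past the test in 2 of 8 other settings. The log2 fold change of Cdh1 in this step was -0.01 (95% confidence interval -0.23 to 0.22), beside the 0.55 in control.

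**Figure D3:**
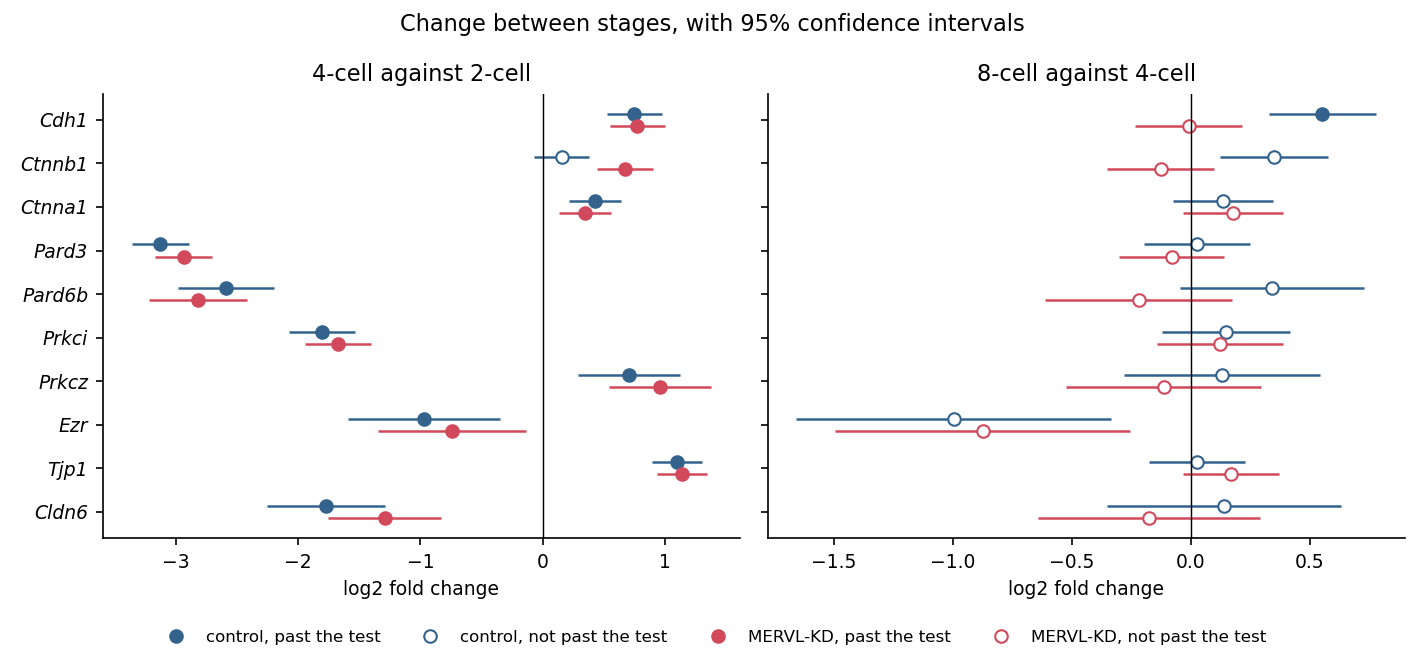
Log2 fold changes between stages for the 10 genes with 95% confidence intervals, control in blue and MERVL-KD in red, filled where past the test. Pard3, Pard6b, Prkci, Cldn6 and Ezr fall to the 4-cell stage in both conditions, and Cdh1 in control is the single filled point of the step to the 8-cell stage, a step in which scaling by library size alone turns the sign of 6 unfilled control genes.

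What the loss of MERVL did to these genes was asked stage by stage, with the 4 libraries of a stage in a fit of their own. The scaling of that fit places the 2-cell log2 ratio of MERVL-KD over control 0.08 above the scaling of the levels printed here. Scaling by library size alone would raise the median gene of MERVL-KD over control by 0.29 on the log2 scale in 2-cell and by 0.13 in 8-cell embryos, so the changes below are relative to the TMM scaling. The median gene of the control stage steps would likewise move by 0.16 and -0.20 on the log2 scale, and that of both MERVL-KD steps by -0.13.

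At the 2-cell stage Cdh1, Ezr and Cldn6 were higher in MERVL-KD. These were 3 of the 10 genes higher and 0 lower past the test, beside 6.74% of all features higher and 7.23% lower. The share of higher members was above the background, with each of the 3 close to the threshold. By edgeR's quasi-likelihood test 4 of the genes had an unadjusted p under 0.05, and DESeq2 called 1 gene higher, Cldn6, and 0 lower. None of the 10 changed at least 2-fold past the test, beside 6.47% of all features. Members had a median log2 fold change of 0.08, against 0.01 over all tested genes. This median was 0.37 with library size alone and turned to -0.003 with all 12 libraries in 1 fit.

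Cdh1 measured 86.5 and 99.6 normalised CPM in 2-cell control and 108 and 109 in 2-cell MERVL-KD. Ezr measured 8.55 and 10.7 against 12.1 and 15.5, and Cldn6 13.2 and 16.1 against 18.6 and 21.0 normalised CPM. For all 3 genes both MERVL-KD libraries lay above both control libraries. The log2 fold change was 0.30 for Cdh1 (SE 0.0953, adjusted p = 0.0462), 0.60 for Ezr (SE 0.192, adjusted p = 0.0488) and 0.52 for Cldn6 (SE 0.162, adjusted p = 0.0443), each higher in 2 of 2 libraries by edgeR's quasi-likelihood test with the Benjamini-Hochberg correction. Without the first 2-cell control library the log2 fold changes were 0.20, 0.45 and 0.38 and none was past the test (adjusted p = 0.392, 0.281 and 0.311, same edgeR test with the Benjamini-Hochberg correction). Without the second MERVL-KD library they were 0.29, 0.41 and 0.42 (adjusted p = 0.0987, 0.269 and 0.161 by edgeR with the Benjamini-Hochberg correction), and without the first MERVL-KD library the value for Cdh1 was 0.29 with an adjusted p of 0.114 in that edgeR test with the Benjamini-Hochberg correction. DESeq2's size factors in edgeR, and all 12 libraries in 1 fit, each left 0 of the 10 genes past the test, whereas scaling by library size alone put 8 past it as higher.

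The remaining 7 genes were not past the test at the 2-cell stage. Of these, Ctnnb1, Ctnna1, Pard3 and Prkcz had both MERVL-KD libraries below control on the 12-library scaling, and Pard6b, Prkci and Tjp1 overlapped with it. Tjp1 was 168 and 160 normalised CPM in MERVL-KD against 141 and 160 in control, a log2 fold change of 0.21 (95% confidence interval 0.02 to 0.40) that was not past the test. Pard3 was 334 and 333 normalised CPM in MERVL-KD, below the 364 and 374 of control, with a log2 fold change of -0.06 (95% confidence interval -0.23 to 0.11) that library size alone reversed to 0.23, past the test as higher. The other 5 genes lay between -0.14 for Prkcz and 0.09 for Prkci on the log2 scale, and the signs of Ctnnb1, Ctnna1, Pard6b and Prkcz turned under another scaling.

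At the 4-cell stage Ctnnb1 was the 1 gene of the 10 past the test, as higher, and 0 were lower, beside 4.83% of all features higher and 5.75% lower. A single gene is 10% of the list, above the background of higher features, and no more can be read from it. By edgeR's quasi-likelihood test 4 of the genes had an unadjusted p under 0.05, and DESeq2 called 2 higher, Ctnnb1 and Cldn6, and 0 lower. No member changed at least 2-fold past the test, beside 4.46% of all features. The median log2 fold change of the members was 0.16, against 0.03 over all tested genes. Without the first MERVL-KD library this median was 0.25.

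Ctnnb1 measured 153 and 159 normalised CPM in the 4-cell MERVL-KD libraries and 116 and 122 in control. Both MERVL-KD libraries were clearly above both control libraries. Its log2 fold change was 0.39 (SE 0.0940, adjusted p = 0.0216 by edgeR's quasi-likelihood test with the Benjamini-Hochberg correction, higher in 2 of 2 libraries), but the adjusted p in that edgeR test with the Benjamini-Hochberg correction was 0.215 (0.35) without the first and 0.12 (0.42) without the second control library. Of the 5192 exon bases of Ctnnb1, 759 (14.6%) overlap exons of Ulk4 on the other strand, and their part in the Ctnnb1 counts was not tested. At the same stage Cldn6 was 8.38 and 7.77 normalised CPM in MERVL-KD against 3.46 and 5.14 in control. Those groups did not overlap, and the log2 fold change of 0.92 was not past the test (adjusted p = 0.0564 by edgeR's quasi-likelihood test with the Benjamini-Hochberg correction, higher in 2 of 2 libraries). In 5 of 8 other settings Cldn6 was past the test. With 1 library left out its value ran from 0.66 to 1.22 and was past the test in 1 of 4 fits, without the second control library. Ezr was 5.96 and 10.5 normalised CPM in MERVL-KD against 3.66 and 6.18, so the groups overlapped, and its log2 fold change of 0.75 (95% confidence interval 0.02 to 1.50) was not past the test. Without the second control library (1.17) or the first MERVL-KD library (1.10) it was past the test, and without the first control library (0.42) or the second MERVL-KD library (0.29) it was further from it.

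Cdh1 at the 4-cell stage was 182 and 188 normalised CPM in MERVL-KD against 154 and 159 in control, and Tjp1 was 342 and 382 against 320 and 325. Neither pair of groups overlapped and neither gene was past the test, with log2 fold changes of 0.25 (95% confidence interval 0.05 to 0.45) and 0.17 (95% confidence interval -0.02 to 0.37). Ctnna1 was 105 and 121 normalised CPM in MERVL-KD, under the 128 and 123 of control, at a log2 fold change of -0.15 (95% confidence interval -0.37 to 0.08). The 4 PAR complex genes overlapped between the groups, from -0.23 for Pard6b to 0.15 for Prkci on the log2 scale. With 1 library left out, Pard6b ran from -0.54 to 0.14 and Prkci from 0.04 to 0.24. Pard3 then ran from -0.07 to 0.17 and Prkcz from -0.26 to 0.28.

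At the 8-cell stage Pard6b was lower and Tjp1 higher in MERVL-KD. These were 1 of the 10 genes higher and 1 lower past the test, beside 1.62% of all features higher and 3.51% lower. As at the 4-cell stage, a count of 1 is above these shares without saying more. No gene changed at least 2-fold past the test, beside 1.70% of all features. By edgeR's quasi-likelihood test 5 of the 10 genes had an unadjusted p under 0.05, and DESeq2 called the same 2 genes as edgeR. The median log2 fold change was -0.07, against 0.01 over all tested genes. Its sign turned with library size alone (0.06) and without the second control library (0.02).

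Pard6b measured 9.44 and 8.62 normalised CPM in 8-cell MERVL-KD and 16.5 and 14.9 in control. Tjp1 measured 394 and 419 in MERVL-KD and 313 and 344 normalised CPM in control. Neither gene's groups overlapped. The log2 fold change was -0.79 for Pard6b (SE 0.186, adjusted p = 0.0321, lower in 2 of 2 libraries) and 0.32 for Tjp1 (SE 0.0831, adjusted p = 0.0495, higher in 2 of 2 libraries) by edgeR's quasi-likelihood test with the Benjamini-Hochberg correction. Without the first control library neither was past the test (log2 fold changes -0.71 and 0.26), and without the second control library Tjp1 was not (0.39). Library size alone ended the call of Pard6b (-0.66), and DESeq2's size factors (0.31) or 1 fit of all 12 libraries (0.31) that of Tjp1.

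Cdh1 was 165 and 203 normalised CPM in 8-cell MERVL-KD and 221 and 239 in control. Both MERVL-KD libraries lay below control, the reverse of the 2-cell and 4-cell stages. Its log2 fold change of -0.31 was not past the test (SE 0.104, adjusted p = 0.115 by edgeR's quasi-likelihood test with the Benjamini-Hochberg correction, lower in 2 of 2 libraries), and it was past it without the second MERVL-KD library (-0.47) or with the replicate number as a block (-0.32), a pairing in which libraries share the number alone. Without the first MERVL-KD library the value was -0.18 and with library size alone -0.19, neither past the test. Cldn6 was 7.21 and 7.08 normalised CPM in MERVL-KD against 4.93 and 4.52, and Ezr was 4.04 and 4.95 against 2.58 and 2.35. Both stood above control in 2 of 2 libraries at this stage, as at the 2-cell stage, at log2 fold changes of 0.60 (95% confidence interval 0.09 to 1.12) and 0.88 (95% confidence interval 0.22 to 1.54) that were not past the test. The summed later preimplantation markers were also lower in 8-cell MERVL-KD, with the exceptions given above, and their part in the values of Cdh1 and Pard6b was not tested.

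**Figure D4:**
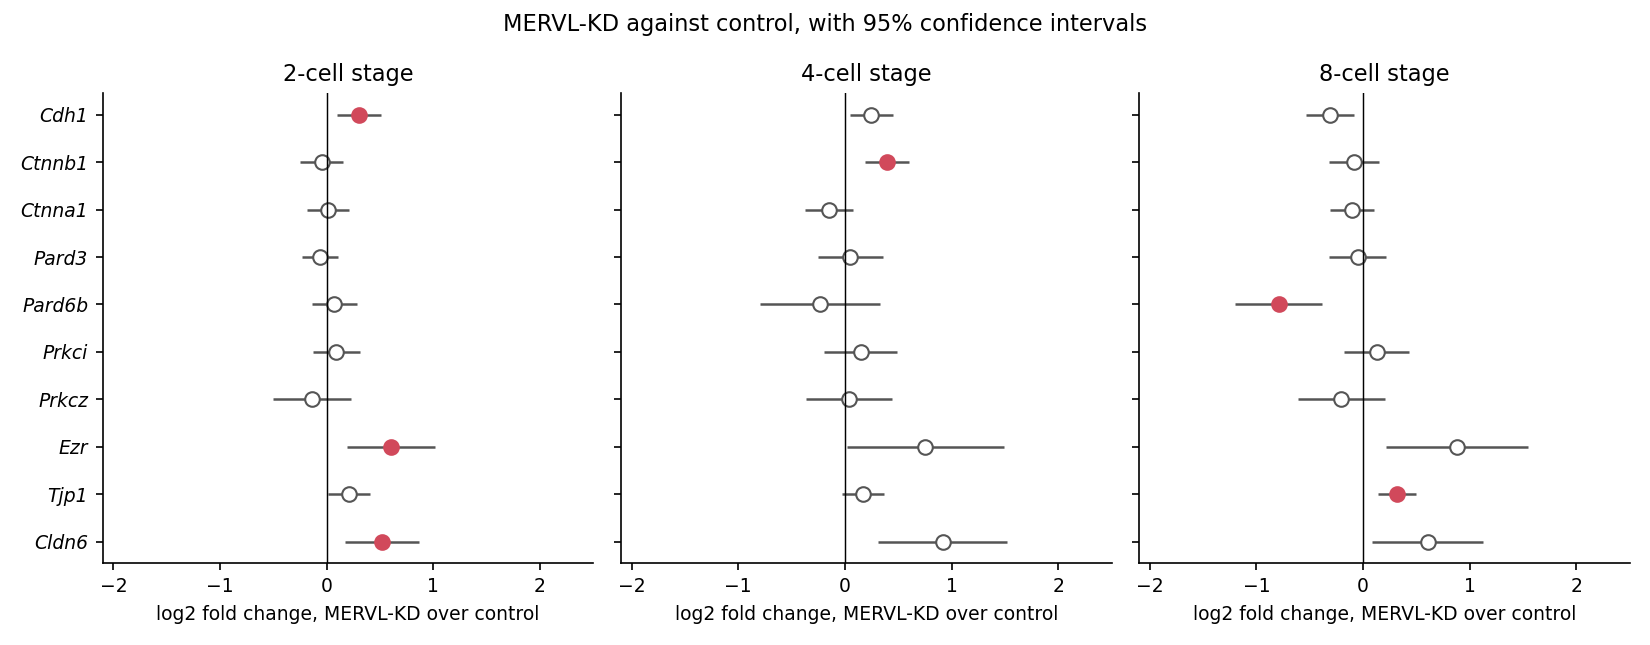
Log2 fold change of MERVL-KD over control for the 10 genes at each stage, with 95% confidence intervals, filled red where past the test. Cldn6 and Ezr lie to the right of 0 at all 3 stages and Pard6b at the 8-cell stage lies at -0.79, while the signs of Ctnnb1, Ctnna1, Pard3, Pard6b and Prkcz at the 2-cell stage and of Ctnnb1, Ctnna1 and Pard3 at the 8-cell stage turn under another scaling.

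Whether the effect of the knockdown differed between stages was tested as an interaction over all 12 libraries. None of the 10 genes was past the test between the 4-cell and 2-cell stages, beside 4.12% of all features, between the 8-cell and 4-cell stages, beside 0.640%, or between the 8-cell and 2-cell stages, beside 3.98%. By edgeR's quasi-likelihood test the counts of 0 stood beside 1, 3 and 2 genes at an unadjusted p under 0.05, and DESeq2 called 1 (Ctnnb1), 1 (Cdh1) and 2 (Cdh1 and Pard6b). Cdh1 came closest: its effect at the 8-cell stage minus that at the 2-cell stage was -0.54 on the log2 scale (SE 0.152, adjusted p = 0.0509 by edgeR's quasi-likelihood test with the Benjamini-Hochberg correction, lower in 2 of 2 MERVL-KD libraries at the 8-cell stage and higher in 2 of 2 at the 2-cell stage). That difference was past the test without the second 2-cell control library (-0.65), the first 8-cell control library (-0.69) or the second 8-cell MERVL-KD library (-0.79), and under all of the other 7 settings. It was not past the test in the other 5 of the 8 fits with a library left out, where it came down to -0.39 without the first 8-cell MERVL-KD library. The difference for Cdh1 between the 8-cell and 4-cell stages was -0.56 (95% confidence interval -0.88 to -0.25), not past the test, and of the 8 fits with a library left out 1 was past it, without the second 8-cell MERVL-KD library (-0.69), over a range of -0.69 to -0.42. For Pard6b the difference between the 8-cell and 2-cell stages was -0.79 (95% confidence interval -1.32 to -0.25), and for Ctnnb1 that between the 4-cell and 2-cell stages was 0.52 (95% confidence interval 0.20 to 0.84), neither past the test. Library size alone would move the median gene of the interaction by -0.30 on the log2 scale between the 4-cell and 2-cell stages and by -0.24 between the 8-cell and 2-cell stages.

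Among themselves the 10 genes formed a high-early and a low-early set over the 12 libraries. Pard3 and Prkci had a Pearson r of 0.989 on log2 CPM over 12 libraries, Pard3 and Pard6b 0.980, and Cdh1 and Tjp1 0.908, whereas Pard6b and Tjp1 had -0.986. These values are descriptions: the 12 libraries share 3 stages, and the step from the 2-cell stage carries most of each. Among 13316 genes that reached 10 counts or more in all libraries, the one most like Pard3 was Slain2 (Pearson r of 0.998 over 12 libraries), the one most like Prkci was Tpgs2 (0.996), the one most like Pard6b was Sh3yl1 (0.992), the one most like Tjp1 was Ddx19b (0.993) and the one most like Cdh1 was Zwilch (0.982). For the other members it was Lin7c for Ctnna1 (0.989), Fam219a for Cldn6 (0.986), Id4 for Ezr (0.969), Nsa2-ps1 for Ctnnb1 (0.962) and A430005L14Rik for Prkcz (0.956).

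Other genes of the same structures were read from a list of 48, all of which were tested in every comparison. Between the 2-cell and 4-cell stages in control 20 of the 48 rose and 21 fell, beside 26.6% and 28.1% of all features, with a median log2 fold change of 0.06. Cldn4, a claudin, went from 1.18 and 0.716 normalised CPM in 2-cell to 48.7 and 39.8 in 4-cell control, and Cldn7 from 1.34 and 1.93 to 34.8 and 39.1. These claudins thus appeared as Cldn6 declined, at log2 fold changes of 5.56 and 4.48 against the -1.77 of Cldn6. Tead4, a transcription factor of the outer lineage, went from 10.7 and 14.0 to 223 and 198 normalised CPM (4.09), and Tfap2c, another transcription factor of that lineage that is also on the later preimplantation list, from 55.9 and 69.2 to 148 and 151 (1.26). Pard6g, a relative of Pard6b, went from 10.8 and 12.4 to 0.965 and 0.764 normalised CPM, a log2 fold change of -3.74 beside the -2.59 of Pard6b. Mpp5, which binds the Crumbs complex, fell by 2.79 on the log2 scale, from 191 and 193 to 29.5 and 26.3 normalised CPM.

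In MERVL-KD against control 6 of the 48 genes passed the test as higher in 2-cell embryos, 5 in 4-cell and 1 in 8-cell embryos, while 3, 7 and 4 passed it as lower. Over all features the shares were 6.74%, 4.83% and 1.62% higher and 7.23%, 5.75% and 3.51% lower, so that the 3 lower genes of the 2-cell and the 1 higher gene of the 8-cell stage are near the background. Their median log2 fold changes were -0.05, -0.02 and -0.17, against 0.01, 0.03 and 0.01 over all tested genes. Myh10, a non-muscle myosin heavy chain, was 15.7 and 16.4 normalised CPM in 2-cell MERVL-KD against 52.0 and 53.0 in control, 46.6 and 39.0 against 85.5 and 83.1 at the 4-cell stage, and 55.6 and 74.3 against 150 and 141 at the 8-cell stage. It was lower in 2 of 2 libraries at each stage, with log2 fold changes of -1.63, -0.97 and -1.15 (adjusted p = 3.67e-07, 0.000514 and 0.000357 by edgeR's quasi-likelihood test with the Benjamini-Hochberg correction). Myh9, another non-muscle myosin heavy chain, overlapped with control at the 2-cell stage. In 4-cell MERVL-KD it was 226 and 267 normalised CPM against 169 and 177. In 8-cell MERVL-KD it was 245 and 255 against 194 and 207, a log2 fold change of 0.33 past the test. In 1 fit of all 12 libraries that value was 0.32 and not past the test. Jup, the plakoglobin relative of beta-catenin, was higher at the 2-cell stage, with 22.9 and 35.3 against 11.6 and 14.3 normalised CPM, and at the 4-cell stage, with 39.3 and 46.7 against 19.2 and 19.2. Those groups stood apart, at log2 fold changes of 1.25 and 1.17 (adjusted p = 0.000402 and 0.000475 by edgeR's quasi-likelihood test with the Benjamini-Hochberg correction, higher in 2 of 2 libraries each). At the 8-cell stage Jup overlapped between the groups, at 24.0 and 23.0 against 18.9 and 28.04 normalised CPM, with a log2 fold change of 0.01 (95% confidence interval -0.40 to 0.42).

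Scrib, of the basolateral complex that opposes the PAR proteins, was 34.2 and 31.8 normalised CPM in 2-cell MERVL-KD against 16.2 and 18.7 in control, a log2 fold change of 1.00. Msn, which encodes moesin, a relative of ezrin, was 14.0 and 8.82 normalised CPM in 4-cell MERVL-KD against 4.34 and 3.34, a log2 fold change of 1.57. Both genes, like Ezr at the 2-cell stage, were higher in 2 of 2 libraries and past the test. Other genes of the same roles did not all follow. At the 2-cell stage 1 of 7 basolateral genes passed as higher and 0 as lower, beside 6.74% and 7.23% of all features. Dlg1, Llgl1, Llgl2 and Mark2 lay below control there on the 12-library scaling. Rdx, an apical cortex gene like Msn, was 326 and 356 normalised CPM in 2-cell MERVL-KD against 388 and 396. At the 4-cell stage it overlapped with control, and Slc9a3r1 of that role lay above control at both stages. Nectin2, an adhesion molecule, was 2.31 and 1.78 normalised CPM in 2-cell MERVL-KD against 5.52 and 4.84, a log2 fold change of -1.25, and was not past the test in 1 fit of all 12 libraries (-1.34). Afdn, which joins nectins to actin, was 106 and 90.5 normalised CPM in 4-cell MERVL-KD against 167 and 154, a log2 fold change of -0.70 with both libraries below control. Tead4 passed the test as higher in 2-cell (0.63) and as lower in 4-cell embryos (-0.56), and for the 2-cell value it was not past the test without the first control library (0.45) or the first MERVL-KD library (0.54). Tfap2c never passed the test, its log2 fold changes being 0.04, -0.18 and -0.23 in order of stage, the first of which turned to -0.05 in 1 fit of all 12 libraries.

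**Figure D5:**
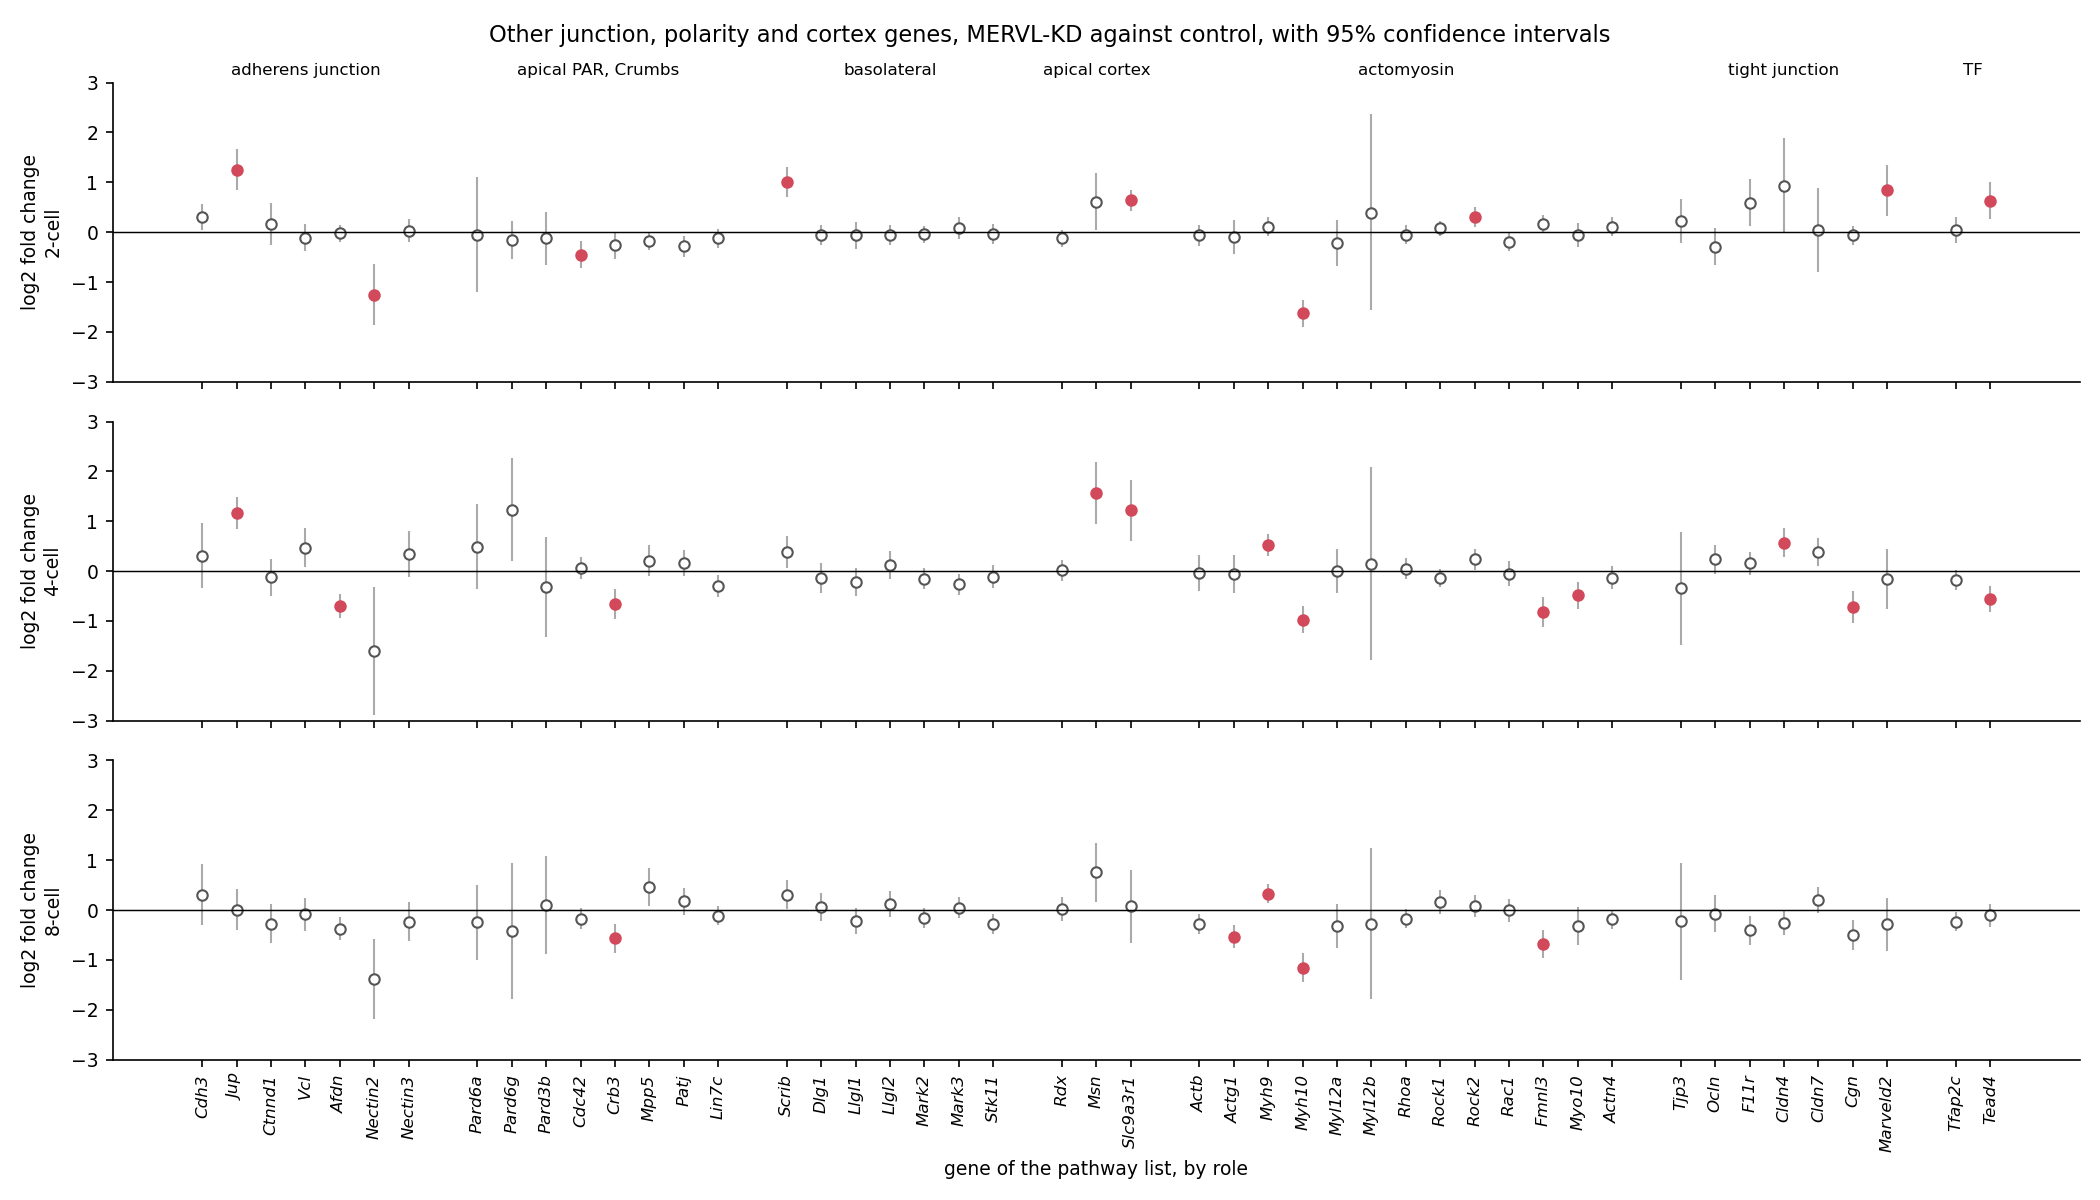
Log2 fold change of MERVL-KD over control for 47 of the 48 other genes by role at the 2-cell, 4-cell and 8-cell stages, with 95% confidence intervals and red points past the test. Myh10 lies below 0 in all 3 panels and Jup above 0 in the 2-cell and 4-cell panels.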

How the data were processed

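RNA-seq read counts of 12 embryo libraries were used; the ATAC libraries were not analysed here. The deposited counts were made by the authors with STAR 2.5.3a on GRCm38 and featureCounts over GENCODE genes and RepeatMasker families; the strand setting of the counting is not given in the sources used here. Between 71.8% and 74.7% of the counts from 1 to 50 were even numbers, so a count was not taken as 1 fragment, and halved counts were an alternative. In R 4.3.3, edgeR 4.0.16 (filterByExpr, TMM, robust quasi-likelihood test, Benjamini-Hochberg correction over all tested genes and repeat families, threshold 0.05) compared MERVL-KD with control in the 4 libraries of each stage, and stages and interactions in 1 fit of the 12 libraries. Alternatives were DESeq2 1.42.0, its size factors, library size alone, other filters, a fold of at least 2, a replicate block, other pooling of libraries, and each library left out. A p-value here measures the spread between 2 pools of 30 embryos per group. Python 3.11.15 with pandas 2.3.3 and matplotlib 3.10.9 drew figures and read promoters. Total counts per library were 28167085 to 41482526. Named were the 10 members, Tfap2c and Tead4, MERVL, and for each member the gene with the highest Pearson r. Of the 48 list genes, up to 4 per comparison and direction could be named, by log2 fold change past the test. Not every gene that this rule allows is given, and some examples were chosen after their values were seen. Rdx, Dlg1, Llgl1, Llgl2 and Mark2 are named outside the rule. A gene of the list of 48 is counted but not reported here. The members and lists were chosen with earlier results of these data known. On simulated data the test missed most planted changes of about the size reported for Ezr and Cldn6 between 2-cell MERVL-KD and control. Changes as small as those past the test for Cdh1, Ctnnb1 and Tjp1 were not planted. A gene not past the test is therefore not shown to be level. Marker lists were 2-cell embryo, oocyte-derived, later preimplantation, and cumulus or granulosa.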

Additional observations from a re-analysis of the deposited data

Results flagged for a closer look

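Interaction tests over the 12 libraries (edgeR's quasi-likelihood test with the Benjamini-Hochberg correction) passed for the genes of the list of 48 given below, and for none of the 10 compaction and polarity genes, between the 2-cell stage and a later one. The effect of MERVL-KD at the 4-cell stage minus that at the 2-cell stage was 0.73 on the log2 scale for Myh10 and 0.59 for Cdc42, and it was -1.11 for Tead4, -0.92 for Fmnl3 and -0.60 for Afdn. With 1 of the 8 libraries of these groups left out, the difference stayed past the test in 8 of 8 fits for Tead4 and Fmnl3, 4 for Afdn, 2 for Myh10 and 1 for Cdc42. Its range over those fits was -0.72 to -0.53 for Afdn, 0.60 to 0.76 for Myh10 and 0.42 to 0.76 for Cdc42. Library size alone ended the calls of Myh10 (0.43) and Cdc42 (0.29), and Cdc42 was past the test in 3 of 7 other settings. The effect at the 8-cell stage minus that at the 2-cell stage was 0.71 for Mpp5, -1.17 for Jup, -1.12 for Cldn4 and -0.78 for Fmnl3, past the test in 2, 4, 4 and 8 of the 8 fits with a library left out. The range was 0.39 to 0.92 for Mpp5, -1.52 to -0.82 for Jup and -1.49 to -0.80 for Cldn4. Library size alone (0.47) and a filter of 10 counts in every library (0.61) ended the call of Mpp5, and halved counts that of Cldn4 (-1.11). Cldn4 stood at 1.47 and 1.92 normalised CPM in 2-cell MERVL-KD against 1.18 and 0.716 in control. Its difference thus rests in part on low 2-cell levels.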

How the results depend on the processing

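Counts of the 10 members past the test depended on the setting. For MERVL-KD against control at the 2-cell stage (3 members), a fold of at least 2 left 0, DESeq2 1, DESeq2 size factors in edgeR 0, library size alone 8 and all 12 libraries in 1 fit 0. Library size alone reversed Pard3 there to 0.23. At the 4-cell stage (1 member) a fold of at least 2 left 0, and DESeq2, no filter beyond 1 count, at least 10 counts in every library, halved counts and all 12 libraries in 1 fit each gave 2. At the 8-cell stage (2 members) a fold of at least 2 left 0, and DESeq2 size factors, library size alone and all 12 libraries in 1 fit each left 1.

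From the 2-cell to the 4-cell stage a fold of at least 2 left 5 of 9 in control and 5 of 10 in MERVL-KD, and library size alone gave 10 and 9. From the 4-cell to the 8-cell stage in control (1 member) a fold of at least 2 left 0, DESeq2 gave 3, its size factors 2, library size alone 2, no filter beyond 1 count 2, at least 10 counts in every library 3 and the libraries of 1 condition alone 2. In MERVL-KD (0 members) library size alone gave 1 and no filter beyond 1 count 1. For the interactions (0 members each) DESeq2 gave 1 between the 4-cell and 2-cell stages, 1 between the 8-cell and 4-cell stages and 2 between the 8-cell and 2-cell stages, where DESeq2 size factors gave 1, library size alone 2, no filter beyond 1 count 2, at least 10 counts in every library 1 and halved counts 1.

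With the replicate number as a block, the count was 1 in 2-cell embryos, 3 in 8-cell embryos with Cdh1 added, 2 from the 4-cell to the 8-cell stage in control and 1 for the interaction between the 8-cell and 2-cell stages. Libraries of the same number correlated at -0.0521 to 0.0259 between groups, near 0, so the number alone is shared.

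With 1 library left out, the lone library being taken to vary like the other groups, the count ranged from 0 to 3 for MERVL-KD against control at the 2-cell stage, 0 to 2 at the 4-cell stage and 0 to 3 at the 8-cell stage. It ranged from 0 to 2 from the 4-cell to the 8-cell stage in control, 0 to 1 in MERVL-KD, 0 to 1 for the interaction between the 8-cell and 4-cell stages and 0 to 1 between the 8-cell and 2-cell stages.

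Features past the threshold numbered 2982 at the 2-cell stage, 48.2% of them higher, against 5283 (86.7%) with library size alone and 2123 (34.9%) with all 12 libraries in 1 fit. At the 4-cell stage they numbered 2171 (45.6% higher) against 1927 (57.2%) with library size alone, and at the 8-cell stage 983 (31.6%) against 1004 (62.5%) with library size alone and 1685 (44.7%) with no filter. From the 4-cell to the 8-cell stage they numbered 1527 in control (50.8% higher) against 2499 (61.3%) by DESeq2, 62.4% higher with its size factors and 2170 (13.0%) with library size alone. In MERVL-KD they numbered 1148 (48.1%) against 1991 (55.3%) by DESeq2, 17.8% higher with library size alone and 612 (37.9%) in 1 condition alone. The interactions had 1025 (59.9%), 159 (47.2%) and 989 (58.9%) against 1743, 501 and 1547 by DESeq2, with 14.3%, 62.5% and 22.4% higher under library size alone, where the first had 1618, and with no filter the second had 469. With 1 library left out, the features past the threshold ranged from 650 to 1912 at the 8-cell stage, from 662 to 746 and from 389 to 1108 from the 4-cell to the 8-cell stage in control and in MERVL-KD, and from 535 to 990, 102 to 285 and 567 to 906 for the interactions. Why these counts moved was not tested, beyond the scaling itself. With 2 libraries per group and 30 embryos in each, calls near the threshold are weakly held.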
